A study of Homo sapiens with 12 samples.

Results

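The genes described here encode the translation initiation factors of human cells, with the kinases, exchange factors and inhibitors that act directly on them. They are the rows of the expression table whose symbol begins with EIF1 to EIF6, after 4 pseudogene or antisense rows were left out of the 59 that match this pattern. This gave 55 genes of 27514 listed, and 53 of them had a mean of at least 1 CPM (reads counted for a gene, scaled to the total reads of the library), as had 12680 genes of the whole table. EIF4E1B and EIF4EBP3 did not pass this minimum, with at most 0.0495 and 0.136 CPM in any sample, and were not tested. RNA sequencing was carried out on IMR32, an established human neuroblastoma cell line with amplified MYCN, after electroporation with a Nucleofector and culture for 72 h. There were 4 groups of 3 samples: those transfected with control siRNA, called siCtrl, those with siRNA targeting MYCN (siMYCN) or HAND2 (siHAND2), and those given both targeting siRNAs at once (combined knockdown). The labels write these as siMYCN_2, siHAND2_3 and siM2+siH2_3; what the numbers stand for, and whether more than 1 siRNA was used per target, is not given in the sources used here, so each target may rest on a single siRNA. The design addresses which genes depend on MYCN and HAND2, both of which encode transcription factors.

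Initiation begins when the eIF2 complex brings the initiator methionine tRNA to the small ribosomal subunit, which eIF3, eIF1, eIF1A and eIF5 hold in a form that can scan messenger RNA. The eIF4F complex binds the cap through eIF4E, bridges to eIF3 through eIF4G and unwinds the leader with the helicase eIF4A, and eIF5B then joins the large subunit. Cells slow the process by phosphorylating eIF2, which blocks its exchange factor eIF2B, or through 4E-BP proteins, which hold eIF4E away from eIF4G. MYC proteins are known for raising the expression of ribosome and translation genes through the E-box CACGTG, and HAND2, a basic helix-loop-helix factor of the sympathetic lineage, is known to bind the E-box CATCTG with its partners.

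The targeted genes were reduced in part. MYCN stood at 67.5% of its siCtrl mean with siMYCN, 84.1% with siHAND2 and 47.7% in the combined knockdown, and HAND2 stood at 136%, 26.0% and 30.7%. The estimated depth was 31.6 to 64.2 M reads per sample. The share of reads lying in the listed genes fell between groups, from 64.3 to 65.8% in the siCtrl samples to 61.3 to 63.3% with siMYCN, 56.8 to 61.4% with siHAND2 and 58.4, 51.4 and 44.3% in combined knockdown replicates 1, 2 and 3. CPM is scaled to all reads of a library. The median log2 fold change over all tested genes was 0.01 with siMYCN, -0.14 with siHAND2 and -0.28 in the combined knockdown. The main counts below were therefore also taken after rescaling every sample by its median ratio to the other samples, which put those medians at 0.01, 0.01 and 0.04. The MYCN and HAND2 percentages above are from deposited CPM and were not taken after rescaling. They therefore include any shift of scale between the groups. Of 10 adrenergic neuroblastoma markers, 9 had at least 1 CPM in every group. The sum of the 10 was 1582 to 1688 CPM in siCtrl, 1510 to 1550 with siMYCN, 1510 to 1683 with siHAND2 and 991 to 1424 in the combined knockdown. This list includes MYCN, itself a target, which averaged 1009, 682, 849 and 482 CPM in these groups, so the sum is not independent of the knockdown. The 4 immune markers summed to at most 0.985 CPM in any sample, and 3 endothelial markers to 0.551 to 0.776 CPM in siCtrl, 2.05 to 2.82 with siMYCN, 0.886 to 1.45 with siHAND2 and 1.19 to 1.92 in the combined knockdown, with PECAM1 under 0.1 CPM throughout. A list of 8 fibroblast markers summed to 129 to 138 CPM in siCtrl, 166 to 177 with siMYCN, 65.9 to 78.6 with siHAND2 and 39.0 to 60.9 in the combined knockdown, with COL1A2 and DCN under 0.1 CPM throughout. The part of these lists in the results was not tested. In RNA from a whole culture, fewer cells of a type and less RNA per cell cannot be told apart. Nothing in the labels says that the samples of a group came from separate cultures, so p-values measure only the spread between these samples.

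Promoters were read because the targets are E-box factors and most of the genes moved in the same direction. A promoter of 300 bases, from 250 before to 50 after the RefSeq start site (GRCh38.p14), was matched by symbol for 46 of the 55 genes. The letters CACGTG, which read the same on both strands, occurred in 12 of the 46 (26.1%), in 1009 of 9663 promoters of tested genes (10.4%) and in 2030 of 27305 promoters in all (7.435%). The 46 include the untested EIF4E1B and EIF4EBP3, and EIF4EBP3 is among the 12. Of the tested members, 11 held the letters and 33 did not. The letters CATCTG, searched on both strands, occurred in 3 of 46 (6.52%), against 8.99% of the promoters of tested genes and 14.8% of all. The windows below show the E-box, in capitals, of some of the genes whose expression is described further on, on the strand of the gene. EIF2B3, EIF3K and EIF4H also held CACGTG before the start site, and their windows are not printed.

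EIF1B, chr3:40309638-40309673 (+), 69 to 34 bases before the start: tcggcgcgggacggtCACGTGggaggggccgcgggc
EIF2AK2, chr2:37157141-37157176 (-), 196 to 161 before the start: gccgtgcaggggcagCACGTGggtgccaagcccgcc
EIF3F, chr11:7987254-7987289 (+), 83 to 48 before the start: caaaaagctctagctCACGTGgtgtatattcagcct
EIF4A3, chr17:80147229-80147264 (-), 136 to 101 before the start: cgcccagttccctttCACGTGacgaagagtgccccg
EIF4B, chr12:53006419-53006454 (+), 37 to 2 before the start: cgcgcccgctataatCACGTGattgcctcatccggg
EIF4E, chr4:98929185-98929373 (-), 240 to 52 before the start, with 2 E-boxes: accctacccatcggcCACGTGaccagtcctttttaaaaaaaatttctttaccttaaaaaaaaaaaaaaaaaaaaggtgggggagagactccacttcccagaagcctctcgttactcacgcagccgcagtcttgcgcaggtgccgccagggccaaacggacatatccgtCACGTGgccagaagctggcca
EIF4G1, chr3:184314447-184314559 (+), 159 to 47 before the start, with 2 E-boxes: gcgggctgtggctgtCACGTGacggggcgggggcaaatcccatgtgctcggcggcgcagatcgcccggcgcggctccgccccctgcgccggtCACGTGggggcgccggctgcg
EIF5A2, chr3:170908779-170908839 (-), 202 to 142 before the start, with 2 E-boxes: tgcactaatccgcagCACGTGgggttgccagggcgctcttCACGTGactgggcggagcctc

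Among the tested genes with a matched promoter, the 11 with CACGTG had a median log2 fold change of -0.24 with siMYCN and the 33 without it -0.25. In the combined knockdown the medians were -0.72 and -0.68. With siMYCN 3 of the 11 and 14 of the 33 were lower at a limma adjusted p under 0.05 (16.3% of all genes). After rescaling these counts were 9 and 20 (22.5%). In the combined knockdown they were 10 and 26 (50.1%), and 7 and 24 after rescaling (33.0%). Members without a matched promoter, among them EIF2S2, EIF3E and EIF4EBP1, are in neither group. The E-box genes held members that moved in opposite directions: EIF1B rose with siMYCN, while EIF4B and EIF4G1 fell, by the values given below. A match is a description of these letters and not of binding, and the letters were not found in the windows of EIF5A, EIF4A1 or EIF4A2.

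With siMYCN, 24 of the 53 tested genes passed the threshold (limma adjusted p under 0.05 over all tested genes), where 33.7% of all genes did. Of these, 22 were lower and 2 higher, against 16.3% of all genes lower and 17.4% higher. With siHAND2, 17 passed, 16 lower and 1 higher, against 42.7% of all genes (30.4% lower, 12.3% higher). In the combined knockdown 45 passed, 43 lower and 2 higher, against 67.4% (50.1% lower, 17.4% higher). The 3 comparisons use the same siCtrl samples. The median log2 fold changes of the 53 genes were -0.25, -0.19 and -0.68.

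The division of the calls into lower and higher moved most with scaling for siHAND2. After rescaling, siMYCN gave 40 calls, 37 lower and 3 higher, against 47.9% of all genes (22.5% lower, 25.4% higher). The combined knockdown gave 41, 36 lower and 5 higher, against 70.7% (33.0% lower, 37.7% higher). With siHAND2 the rescaled calls were 13 lower and 10 higher, with a median of -0.03, against 50.8% of all genes (24.9% lower, 25.9% higher). All 3 samples lay below all 3 siCtrl samples for 41 of the 53 genes with siMYCN (29.6% of all genes), for 28 with siHAND2 (45.0%) and for 44 in the combined knockdown (48.3%). They lay above for 4, 4 and 2 genes (31.4, 17.8 and 16.7% of all genes).

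The number of siMYCN calls fell when any 1 of the compared libraries was left out, which also leaves fewer samples in its group. It was 14, 16 and 14 without siCtrl replicates 1, 2 and 3, and 14, 14 and 13 without siMYCN replicates 1, 2 and 3. The other groups enter through the shared estimate of spread. The number was 24, 23 and 24 without siHAND2 replicates 1, 2 and 3, and 32, 24 and 37 without combined knockdown replicates 1, 2 and 3. For siHAND2 the count ranged from 11 without siHAND2 replicate 3 to 26 without combined knockdown replicate 1. Among single genes, the siMYCN calls of EIF1AX, EIF2B3, EIF2D, EIF3A, EIF3H, EIF3I, EIF4A1 and EIF4B were kept in 13 to 15 of 21 other settings, and the siHAND2 calls of EIF1AY and EIF3J in 14 and 15. The combined knockdown count stayed between 44 and 47 when any 1 library was left out. Shares of all genes called were not taken in the fits with 1 library left out.

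**Figure D1:**
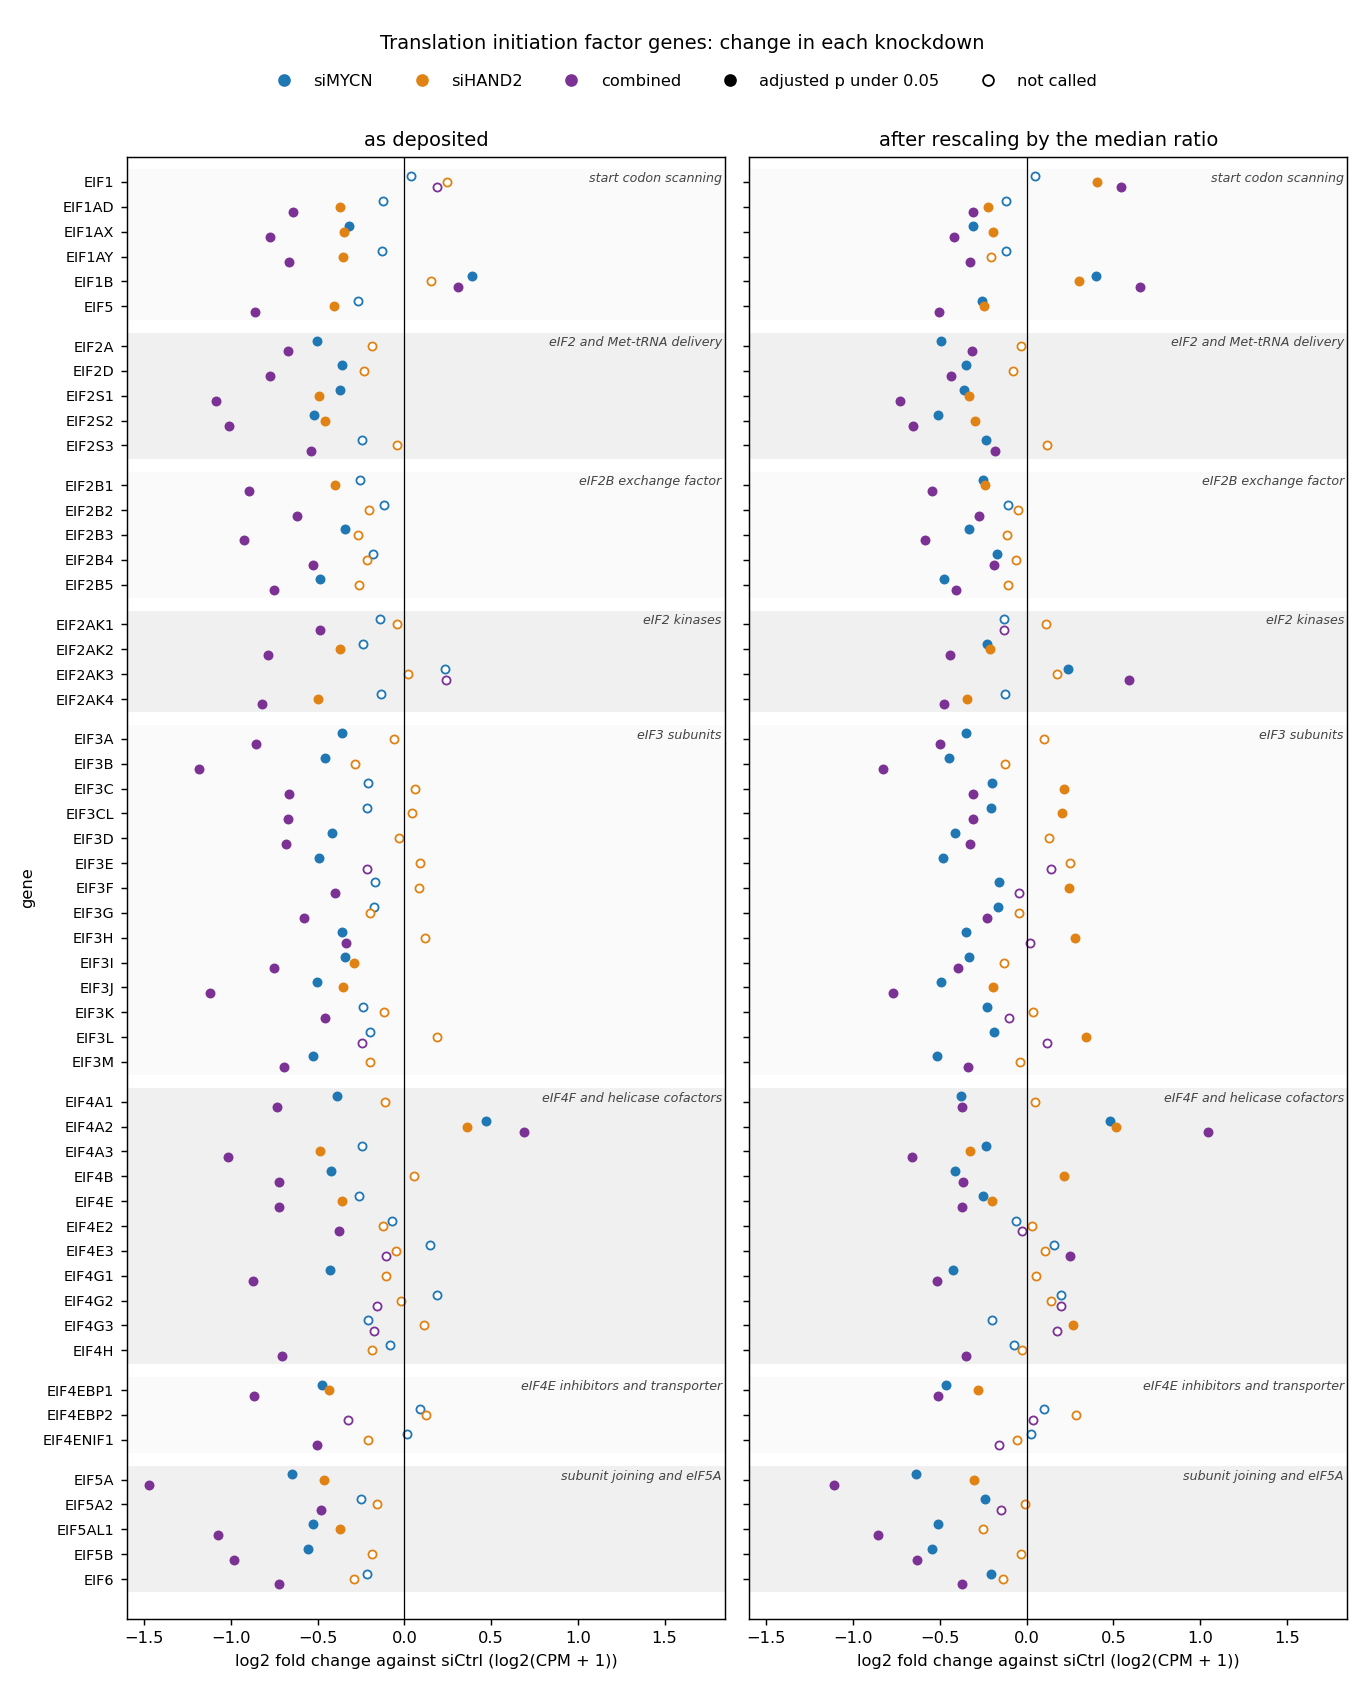
Fitted log2 fold change against siCtrl on the log2(CPM + 1) scale (x axis) of the 53 tested genes (y axis, grouped by role), as deposited (left) and after rescaling by the median ratio (right); colours mark the knockdown and filled points an adjusted p under 0.05. Most siMYCN and combined knockdown points lie left of 0 in both panels, EIF4A2 lies right of 0 in all 3 knockdowns, and the siHAND2 points are centred near 0 after rescaling.

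Summed over the 55 genes, the level was 8294, 8078 and 8125 CPM in the siCtrl samples and 7049, 6842 and 6678 CPM with siMYCN. It was 7995, 7811 and 7319 CPM with siHAND2 and 6558, 5577 and 4616 CPM in the combined knockdown. No knockdown sample reached the lowest siCtrl sample. The means were 84.0, 94.4 and 68.4% of the siCtrl mean of 8166 ± 114 CPM (SD, n = 3), each with an exact two-sided permutation p of 0.1, the smallest that 3 against 3 samples allow. As a share of the reads in listed genes the order changed. The siCtrl mean was 1.25%, siMYCN 1.10%, siHAND2 1.30% and the combined knockdown 1.08% of those reads, so that siHAND2 lay above siCtrl in all 3 samples on this scale and below it in CPM.

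Per kilobase of transcript, the most abundant member in siCtrl was EIF4A1, the cap-complex helicase, at 426 CPM per kb of its canonical transcript. EIF5A followed at 248, EIF3E at 222 and EIF4B, a helicase cofactor, at 189 CPM per kb. With the merged length of all annotated exons as divisor, EIF4A1 kept the top rank at 144 CPM per kb and EIF4B (121) and EIF5A (117) came next, but EIF3E dropped from rank 3 to rank 33, since its annotated exons merge to 37761 bases. Ranks between members therefore rest on the transcript assumed.

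The eIF2 complex and the other factors that deliver the initiator tRNA were lower in the combined knockdown in all 5 cases, with a median of -0.78 on the log2 scale. With siMYCN 4 of 5 fell (16.3% of all genes) and 5 of 5 after rescaling (22.5%). With siHAND2 2 of 5 fell, which is close to the 30.4% of all genes. In the combined knockdown the share of all genes was 50.1%. EIF2S1 encodes the alpha subunit that stress kinases phosphorylate (hg19 chr14:67827034-67853234, plus strand). It measured 125, 120.2 and 125 CPM in siCtrl, 95.1, 97.7 and 92.5 with siMYCN, 86.1, 93.0 and 83.6 with siHAND2, and 68.3, 58.5 and 47.7 in the combined knockdown. All 9 knockdown samples were below all siCtrl samples, and every combined sample was below every single-knockdown sample. On the log2 scale EIF2S1 changed by -0.37 ± 0.12 (SE; limma adjusted p = 0.0175), -0.49 ± 0.12 (0.00173) and -1.09 ± 0.12 (1.41e-08), and after rescaling by -0.36, -0.33 and -0.73, all called. EIF2S2, the beta subunit, had 111, 108 and 112 CPM in siCtrl, 76.9, 77.8 and 74.9 with siMYCN, 79.2, 82.3 and 78.6 with siHAND2, and 65.4, 54.3 and 44.7 in the combined knockdown. It fell by 0.52, 0.46 and 1.01 on the log2 scale (limma adjusted p = 0.00141, 0.00319 and 4.8e-08), again with no overlap with siCtrl. EIF2S3, the gamma subunit that binds GTP and the tRNA, was less affected. It changed by -0.25 and -0.04 with the single siRNAs, neither called, and by -0.54 in the combined knockdown (limma adjusted p = 0.000471). The non-canonical tRNA carriers EIF2A and EIF2D fell with siMYCN by 0.51 and 0.36 and in the combined knockdown by 0.67 and 0.78 on the log2 scale. Neither was called with siHAND2.

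All 5 subunits of eIF2B, the factor that reloads eIF2 with GTP, were called lower in the combined knockdown (50.1% of all genes lower). The falls were 0.53 (EIF2B4) to 0.92 (EIF2B3) on the log2 scale. All 5 also fell after rescaling, by 0.19 to 0.59 (33.0% of all genes lower). With siMYCN EIF2B3 and the catalytic subunit EIF2B5 fell (-0.34 and -0.48), against 16.3% of all genes lower. After rescaling 4 of the 5 were called lower (22.5% of all genes). With siHAND2 EIF2B1 passed, at -0.40 (limma adjusted p = 0.00806), and with the replicate number as a block EIF2B3 (-0.27, adjusted p = 0.0405) and EIF2B5 (-0.26, 0.0422) passed as well.

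The 4 kinases that phosphorylate eIF2 did not move as a block. EIF2AK3 encodes PERK, the kinase of endoplasmic reticulum stress, and measured 30.3, 33.2 and 33.0 CPM in siCtrl, 37.8, 37.9 and 38.2 with siMYCN, 30.9, 34.1 and 32.9 with siHAND2, and 50.5, 39.2 and 28.2 in the combined knockdown. All siMYCN samples exceeded all siCtrl samples, while the combined samples spanned the siCtrl range. Its log2 fold changes, 0.23, 0.02 and 0.24, were not called (limma adjusted p = 0.21, 0.921 and 0.125). After rescaling the combined samples read 51.0, 45.2 and 38.7 against 27.4 to 30.4 in siCtrl, and EIF2AK3 rose with siMYCN (0.24, adjusted p = 0.03) and in the combined knockdown (0.59, adjusted p = 1.97e-05).

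EIF2AK4 encodes GCN2, the sensor of uncharged tRNA. It had 40.0, 38.3 and 38.5 CPM in siCtrl, 36.0, 36.1 and 34.2 with siMYCN, 29.4, 26.5 and 26.1 with siHAND2, and 26.1, 21.1 and 18.2 in the combined knockdown. The siHAND2 and combined samples lay well below siCtrl, with fitted changes of -0.50 ± 0.12 (limma adjusted p = 0.00135) and -0.82 ± 0.12 (9.83e-07), and both calls held after rescaling. The siMYCN change of -0.13 was not called, and EIF2AK4 was the 1 member higher with siMYCN than with siHAND2 (0.36 ± 0.12, limma adjusted p = 0.0179). That difference was not called in 5 of the 21 other settings, with an adjusted p of up to 0.071.

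EIF2AK2 encodes PKR, which responds to double-stranded RNA. It stood at 41.1, 42.7 and 34.6 CPM in siCtrl, 34.3, 32.1 and 33.3 with siMYCN, 33.4, 30.1 and 27.5 with siHAND2, and 24.5, 23.7 and 19.3 in the combined knockdown. It fell with siHAND2 by 0.37 (limma adjusted p = 0.014) and in the combined knockdown by 0.79 on the log2 scale (2.21e-06). With siMYCN the change was -0.24 (0.13), and it was called after rescaling (adjusted p = 0.0226). EIF2AK1, the heme-regulated kinase HRI, had 95.3, 88.4 and 83.4 CPM in siCtrl, 87.8, 78.5 and 75.6 with siMYCN, 96.2, 83.5 and 79.7 with siHAND2 and 74.2, 66.6 and 50.8 in the combined knockdown. Its groups overlapped except in the combined knockdown, where the log2 fold change of -0.49 was called as deposited (limma adjusted p = 0.00172) but not after rescaling (-0.13, adjusted p = 0.105).

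**Figure D2:**
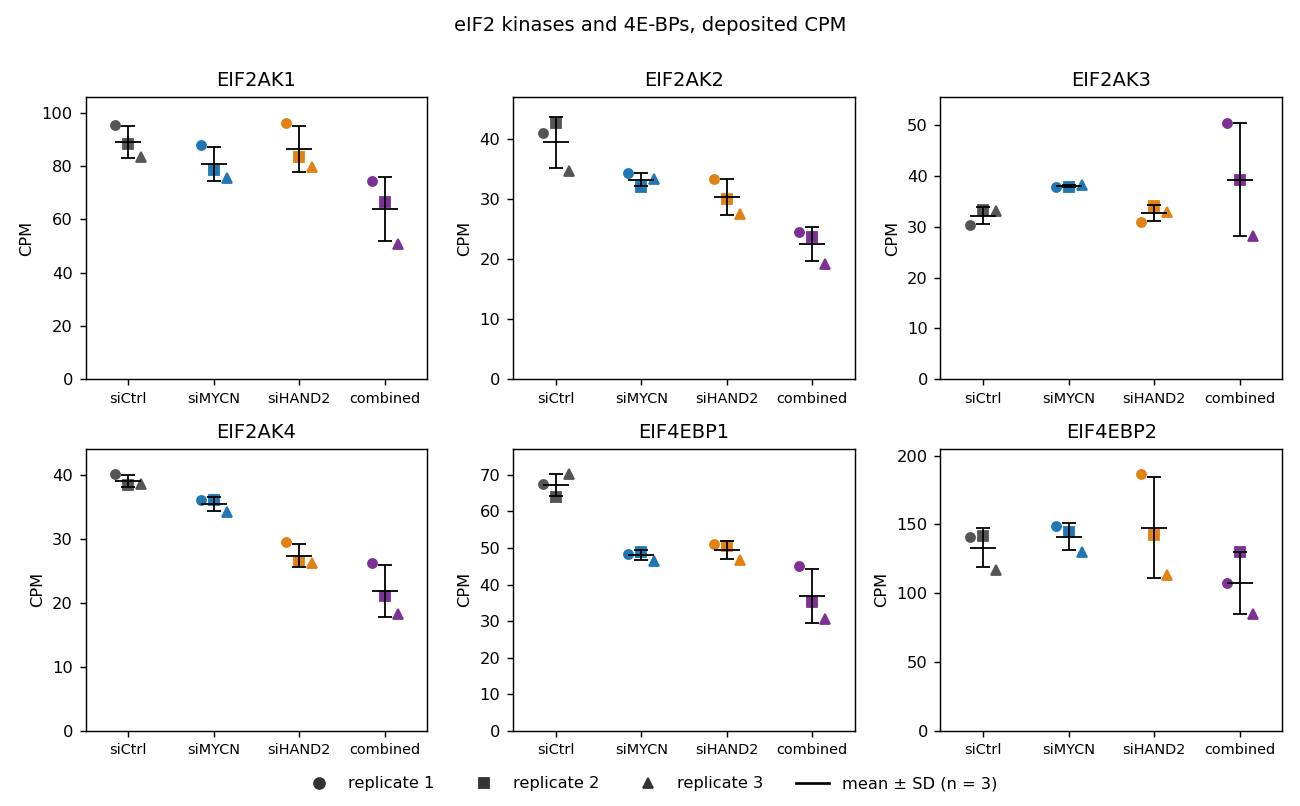
Deposited CPM (y axis, from 0) of the 4 eIF2 kinase genes and of EIF4EBP1 and EIF4EBP2 in the 4 groups (x axis), with 1 marker per replicate and bars for mean ± SD (n = 3). EIF2AK4 and EIF4EBP1 step down without overlap between siCtrl and the siHAND2 or combined samples, while EIF2AK3 and EIF4EBP2 do not.

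Factors of start codon selection divided. EIF1AD was counted with this group, without evidence here for a role in start codon selection. EIF1AX, EIF1AY, EIF1AD and EIF5 fell with siHAND2 by 0.35 to 0.41 and in the combined knockdown by 0.64 to 0.86 on the log2 scale, and of these EIF1AX also fell with siMYCN (-0.32, limma adjusted p = 0.0271). EIF5 passed with siMYCN with the replicate block (adjusted p = 0.0493) and after rescaling (0.000713), against 0.0795 as deposited. After rescaling the siHAND2 call of EIF1AY was lost (adjusted p = 0.103). EIF1AX and EIF1AY are near-identical X and Y copies, so their reads may have been shared. EIF1B, a close copy of the scanning factor EIF1, measured 18.1, 16.2 and 15.9 CPM in siCtrl, 23.1, 22.8 and 20.9 with siMYCN, 23.1, 16.7 and 16.9 with siHAND2, and 20.4, 23.1 and 19.6 in the combined knockdown. The siMYCN and combined samples were above all siCtrl samples. EIF1B rose by a log2 fold change of 0.39 ± 0.12 with siMYCN (limma adjusted p = 0.014) and 0.31 in the combined knockdown (0.0263), and each call was missed in 5 of 21 other settings. EIF1 itself had 122, 102 and 89.3 CPM in siCtrl, 128, 95.0 and 98.8 with siMYCN, 161, 110.2 and 105 with siHAND2, and 115, 139 and 103 in the combined knockdown, with overlapping groups and no call as deposited. After rescaling EIF1 was higher with siHAND2 (0.41, adjusted p = 0.0429) and in the combined knockdown (0.54, adjusted p = 0.0063).

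The eIF3 complex, the largest of the factors and the scaffold of the initiating ribosome, differed between the single siRNAs. With siMYCN all 14 listed subunit genes had a negative log2 fold change, from -0.17 to -0.53. Of these, 8 were called as deposited (16.3% of all genes lower) and 14 after rescaling (22.5%). With siHAND2 EIF3I and EIF3J were called lower as deposited, against 30.4% of all genes. The EIF3I call (limma adjusted p = 0.0495) was kept in only 4 of 21 other settings, with an adjusted p of up to 0.176. After rescaling EIF3J stayed lower (24.9% of all genes), and EIF3C, EIF3CL, EIF3F, EIF3H and EIF3L were called higher (25.9%), by 0.20 to 0.35. As deposited the log2 fold changes of those called higher were 0.04 to 0.19 and not called. In the direct comparison of siMYCN with siHAND2, 5 subunits were lower with siMYCN (EIF3D, EIF3E, EIF3H, EIF3L and EIF3M) and none higher, and 13 of 14 were lower after rescaling. Over all 53 genes this comparison gave 9 lower and 1 higher, against 35.0% of all genes called (8.98% lower, 26.1% higher), and 28 lower and 1 higher after rescaling (44.5% called, 22.2% lower, 22.4% higher). The count of 10 was 3 without siMYCN replicate 2, 3 without siHAND2 replicate 2, 6 and 4 without siMYCN replicates 1 and 3, and 20 and 21 without combined knockdown replicates 1 and 3.

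EIF3M measured 138, 124 and 139 CPM in siCtrl, 90.3, 92.7 and 93.8 with siMYCN, 111, 123 and 116 with siHAND2, and 91.1, 77.8 and 78.1 in the combined knockdown. The siMYCN samples were the lowest single-knockdown samples and did not overlap those of siHAND2. On the log2 scale it changed by -0.53 ± 0.11 (limma adjusted p = 0.000533), -0.20 (0.153) and -0.70 (4.35e-06). EIF3E, a subunit long known as INT6, measured 460.2, 408 and 479 CPM in siCtrl, 324, 319 and 314 with siMYCN, 453, 502 and 476 with siHAND2, and 403, 353 and 403 in the combined knockdown. All siMYCN samples lay below all other samples. The siMYCN change was -0.49 ± 0.11 (limma adjusted p = 0.00144), but the combined change of -0.22 was not called (0.0916) and turned to 0.14 after rescaling, also not called. EIF3E was the 1 member higher in the combined knockdown than with siMYCN alone (0.27, limma adjusted p = 0.0396).

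In the combined knockdown 12 of 14 eIF3 genes were lower (50.1% of all genes), and 9 after rescaling (33.0%). EIF3B, the core subunit with an RNA recognition motif, gave 198, 206 and 206 CPM in siCtrl, 145, 149 and 149 with siMYCN, 166, 176 and 158 with siHAND2, and 115, 88.2 and 69.5 in the combined knockdown. The 4 groups did not overlap. Its log2 fold changes were -0.46, -0.29 (limma adjusted p = 0.0843, and 0.0427 with the replicate block) and -1.18 ± 0.13 (2.07e-08). EIF3J, a loosely bound subunit at the decoding site, gave 93.4, 92.0 and 89.5 CPM in siCtrl, 63.1, 65.4 and 64.0 with siMYCN, 76.1, 73.2 and 65.7 with siHAND2, and 49.2, 45.0 and 32.3 in the combined knockdown. It fell in each, by 0.51, 0.35 and 1.12 on the log2 scale (limma adjusted p = 0.003, 0.0268 and 2.2e-08), and these calls held after rescaling. EIF3H was called lower in the combined knockdown as deposited (-0.34, limma adjusted p = 0.0144) but was at 0.02 after rescaling. EIF3C and EIF3CL are near-identical copies listed at the same span of chromosome 16 and gave nearly the same values. Their reads may have been shared, and every count given here holds both, so that 2 of the 14 eIF3 genes may be 1 measurement.

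**Figure D3:**
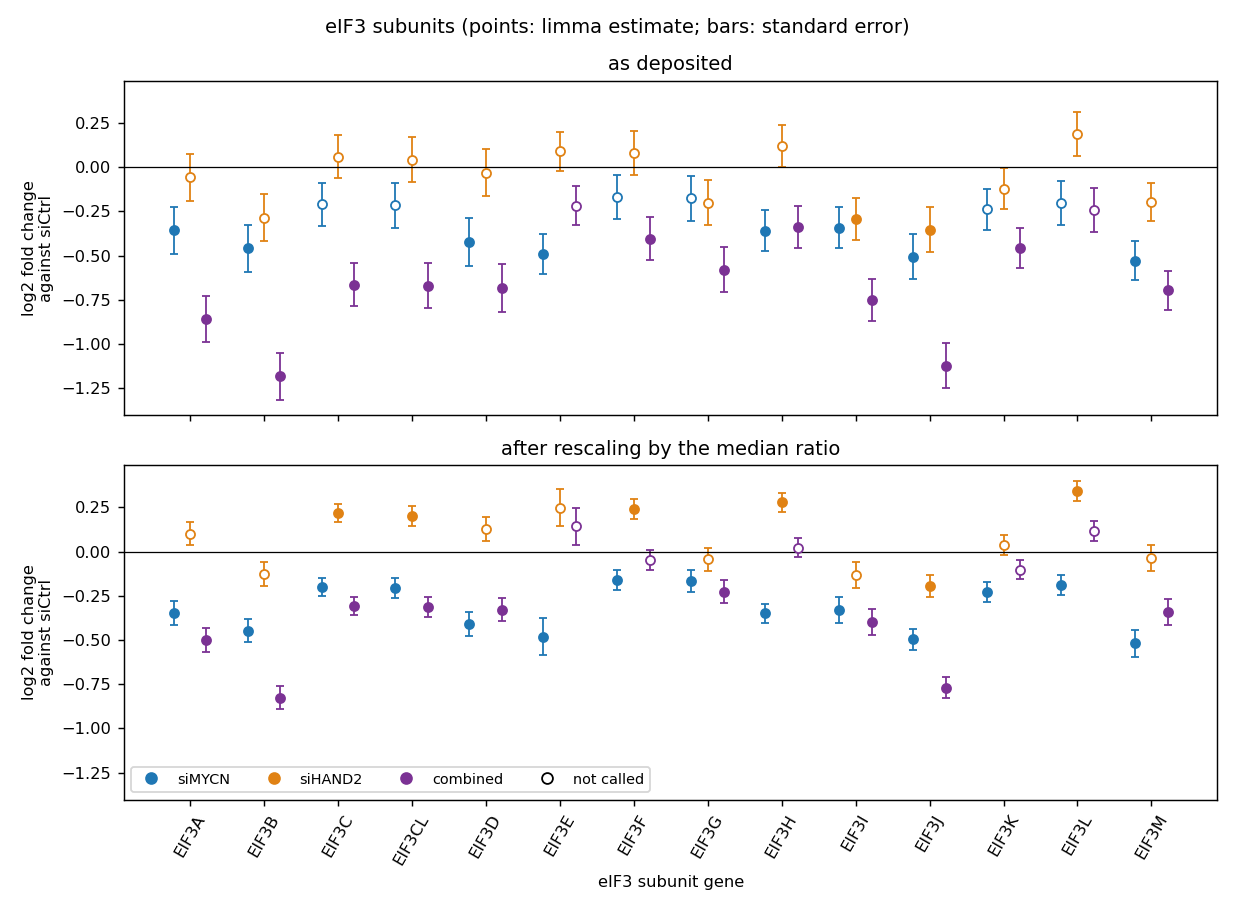
Log2 fold change against siCtrl (y axis, limma estimate with standard error) of the 14 eIF3 subunit genes (x axis), as deposited (top) and after rescaling by the median ratio (bottom), with open symbols for genes not called. The siMYCN points are below 0 for every subunit in both panels, whereas the siHAND2 points of EIF3C, EIF3CL, EIF3E, EIF3F, EIF3H and EIF3L are above 0 in both.

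Within the cap-binding complex the largest contrast was between the helicase genes EIF4A1 and EIF4A2, whose products are interchangeable in reconstituted eIF4F but are regulated differently. EIF4A1 (hg19 chr17:7476024-7482325, plus strand) measured 782, 708 and 759 CPM in siCtrl, 588, 572 and 559 with siMYCN, 693, 721 and 668 with siHAND2, and 576, 429.8 and 367 in the combined knockdown. EIF4A2 (chr3:186501361-186507686, plus strand) measured 204, 180.1 and 198 CPM in siCtrl, 288, 260.4 and 260.2 with siMYCN, 239, 252 and 256 with siHAND2, and 376, 286 and 285 in the combined knockdown. All 9 knockdown samples were above siCtrl for EIF4A2, and all siMYCN and combined samples below siCtrl for EIF4A1. EIF4A1 fell with siMYCN (-0.39 ± 0.13, limma adjusted p = 0.0251) and in the combined knockdown (-0.74 ± 0.13, 2.48e-05), with -0.11 (0.521) for siHAND2. EIF4A2 rose with siMYCN (0.47 ± 0.12, limma adjusted p = 0.00357), with siHAND2 (0.36 ± 0.12, 0.0188) and in the combined knockdown (0.69 ± 0.12, 1.87e-05). It was the only member called higher in all 3 knockdowns as deposited, and after rescaling it remained higher in all 3, by 0.48, 0.52 and 1.05. The siHAND2 rise was not called in 4 of 21 other settings.

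The ratio of 2 genes within a sample does not depend on how the sample is scaled, apart from the 1 CPM added to each value. The log2 ratio of EIF4A2 to EIF4A1 was -1.93, -1.97 and -1.93 in siCtrl, -1.03, -1.13 and -1.10 with siMYCN, -1.54, -1.51 and -1.38 with siHAND2, and -0.61, -0.59 and -0.37 in the combined knockdown. The 4 groups were fully separated. The differences from siCtrl were 0.86, 0.47 and 1.42, each with an exact permutation p of 0.1, the smallest possible, and 0.12 after Benjamini-Hochberg adjustment over 24 ratio tests. Both genes host small nucleolar RNAs in their introns. SNORA63, on the strand of EIF4A2, was at 88.2, 79.0, 79.2 and 114 CPM in the siCtrl, siMYCN, siHAND2 and combined means. On the strand of EIF4A1, SNORA48 was at 39.7, 39.1, 37.5 and 57.0 CPM and SNORD10 at 37.6, 39.4, 32.7 and 47.6 CPM. RFC4, which overlaps EIF4A2 on the other strand, was at 41.7, 29.9, 21.1 and 13.9 CPM and so went down where EIF4A2 went up. Whether the counting used strand is not given in the sources used here, and the part of these neighbours in the EIF4A1 and EIF4A2 values was not tested.

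EIF4A3, a related helicase of the exon junction complex, had 137, 133 and 141 CPM in siCtrl, 119, 116 and 112 with siMYCN, 98.3, 98.4 and 96.2 with siHAND2, and 87.2, 68.3 and 51.3 in the combined knockdown. The siHAND2 samples lay below the siMYCN samples, although the difference between them was not called (0.24, limma adjusted p = 0.167). EIF4A3 fell with siHAND2 by 0.49 (limma adjusted p = 0.00506) and in the combined knockdown by 1.01 on the log2 scale (3.12e-07). EIF4B, which stimulates the helicase, averaged 727 CPM in siCtrl, 541 with siMYCN, 757 with siHAND2 and 452 in the combined knockdown. It fell with siMYCN by 0.43 (limma adjusted p = 0.0228), and the siHAND2 change of 0.06 became a called rise of 0.22 after rescaling (adjusted p = 0.0307). EIF4H, a smaller cofactor, was called in the combined knockdown only (-0.71, limma adjusted p = 5.78e-05), and the duplicated neighbours GTF2IP1 and GTF2IP4 are listed across its position.

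The scaffold genes also diverged. EIF4G1, the main bridge between cap and ribosome, had 368, 410.0 and 357 CPM in siCtrl, 290.2, 279.8 and 269.6 with siMYCN, 372, 349.5 and 333 with siHAND2, and 248, 213 and 165 in the combined knockdown. The siMYCN and combined samples were below siCtrl and the siHAND2 samples overlapped it. EIF4G1 fell with siMYCN by 0.43 (limma adjusted p = 0.011) and in the combined knockdown by 0.87 on the log2 scale (1.54e-06). EIF4G2, the DAP5 protein that lacks the eIF4E binding site, had 716, 679 and 605 CPM in siCtrl, 840.1, 736 and 700.2 with siMYCN, 789.7, 627 and 573 with siHAND2, and 666, 649.6 and 486 in the combined knockdown. Its groups overlapped siCtrl throughout and it was not called, at 0.19, -0.02 and -0.16 as deposited and 0.20, 0.14 and 0.20 after rescaling. EIF4G3 had 33.7, 32.0 and 28.0 CPM in siCtrl, 29.9, 25.5 and 25.2 with siMYCN, 35.8, 33.8 and 31.8 with siHAND2, and 28.5, 29.3 and 25.0 in the combined knockdown. It was not called against siCtrl, but was lower with siMYCN than with siHAND2 (-0.32, limma adjusted p = 0.0293), and after rescaling it was higher with siHAND2 than in siCtrl (0.27, adjusted p = 0.0144). The log2 ratio of EIF4G2 to EIF4G1 exceeded siCtrl by 0.62 with siMYCN and 0.71 in the combined knockdown, without overlap, and by 0.09 with siHAND2, with overlap (exact permutation p = 0.1, 0.1 and 0.5).

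EIF4E, the cap-binding protein itself, had 85.5, 88.3 and 89.4 CPM in siCtrl, 68.6, 77.0 and 73.8 with siMYCN, 68.3, 69.0 and 67.4 with siHAND2, and 59.3, 52.3 and 47.0 in the combined knockdown. All knockdown samples were below siCtrl. The fall was called with siHAND2 (-0.36, limma adjusted p = 0.0105) and in the combined knockdown (-0.73, 2.46e-06), and with siMYCN after rescaling (-0.25, adjusted p = 0.00251) or with the replicate block (adjusted p = 0.0495), against -0.26 and 0.0694 as deposited. Its relatives followed less. EIF4E2, a cap-binding protein linked to repression, had 45.5, 43.7 and 43.0 CPM in siCtrl, 42.5, 42.4 and 40.6 with siMYCN, 40.6, 41.5 and 38.8 with siHAND2, and 40.7, 33.7 and 27.9 in the combined knockdown, where it was called as deposited (-0.38, limma adjusted p = 0.00691) and not after rescaling (-0.03). EIF4E3 had 47.4, 44.8 and 44.1 CPM in siCtrl, 50.9, 49.6 and 50.6 with siMYCN, 51.2, 41.5 and 39.8 with siHAND2, and 46.1, 44.2 and 36.8 in the combined knockdown. It was not called as deposited, and in the combined knockdown its -0.10 turned into a called 0.25 after rescaling (adjusted p = 0.00633). The log2 ratios of EIF4E2 and EIF4E3 to EIF4E were above siCtrl in every knockdown sample, by means of 0.19 to 0.35 and 0.31 to 0.62.

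**Figure D4:**
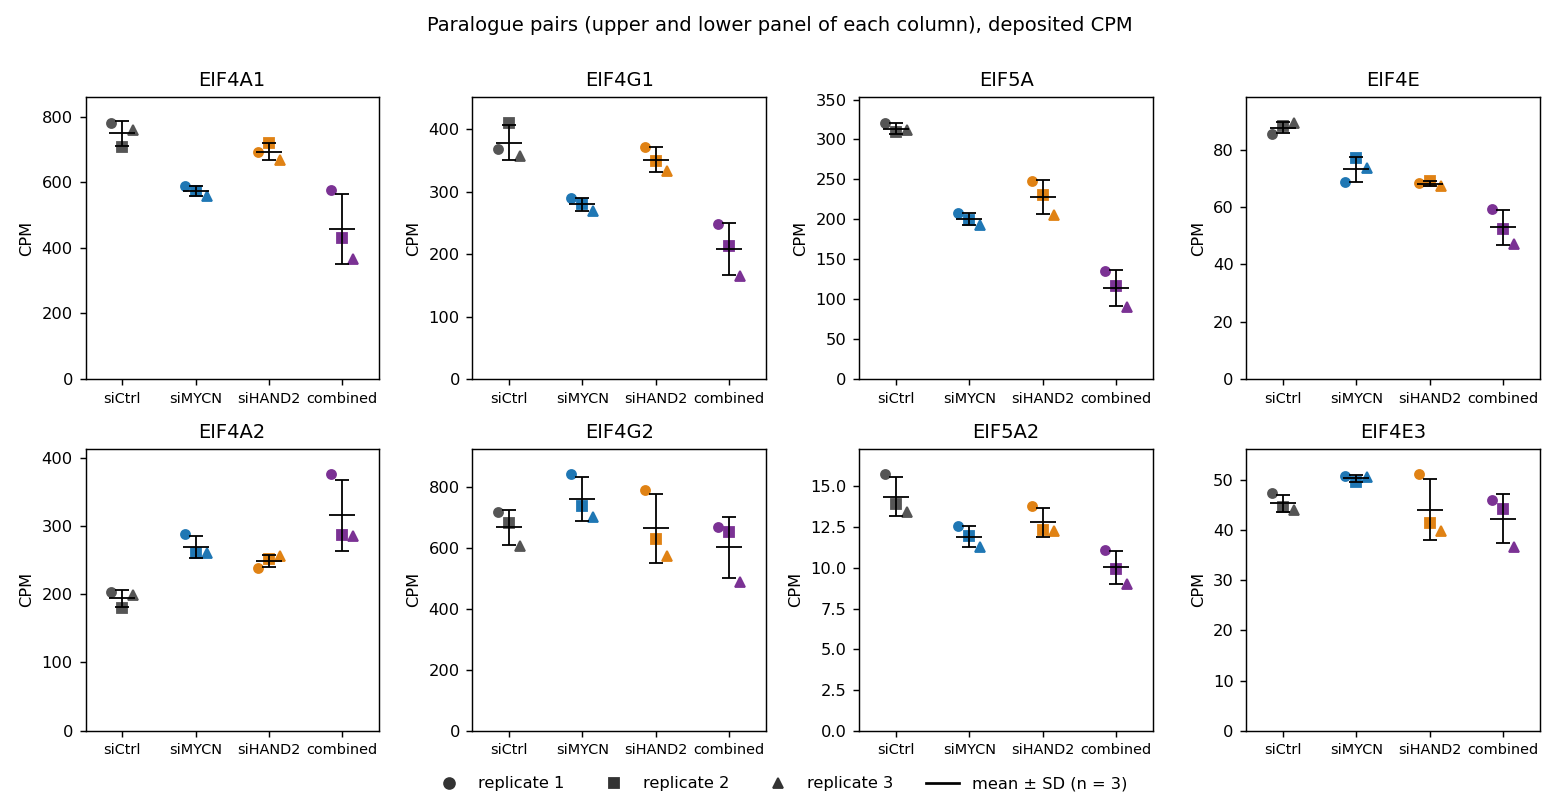
Deposited CPM (y axes, from 0) by group (x axes) of EIF4A1, EIF4G1, EIF5A and EIF4E (top) and of the related genes EIF4A2, EIF4G2, EIF5A2 and EIF4E3 (bottom), with 1 marker per replicate and bars for mean ± SD (n = 3). The 4 genes of the top row are lowest in the combined knockdown, EIF4A2 is highest there, and EIF4G2 and EIF4E3 overlap siCtrl in the siHAND2 and combined groups.

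Of the 2 expressed 4E-BP genes, 1 fell in every knockdown. EIF4EBP1 encodes the main eIF4E inhibitor controlled by mTOR and is a known target of MYC proteins and of ATF4. It had 67.6, 64.0 and 70.2 CPM in siCtrl, 48.5, 49.0 and 46.5 with siMYCN, 51.2, 50.5 and 46.7 with siHAND2, and 45.0, 35.2 and 30.5 in the combined knockdown. All knockdown samples lay below siCtrl, and the single-knockdown groups overlapped each other. Relative to siCtrl it changed by -0.48 ± 0.12 (limma adjusted p = 0.00345), -0.44 ± 0.12 (0.00525) and -0.87 ± 0.12 (7.27e-07), all called in the 21 other settings tried. EIF4EBP2, the form prominent in neurons, had 140.4, 142 and 117 CPM in siCtrl, 148, 145 and 130.1 with siMYCN, 186, 142 and 113 with siHAND2, and 107, 129.7 and 84.7 in the combined knockdown. Its groups overlapped and it was not called against siCtrl, although with the replicate block the combined change of -0.32 was (adjusted p = 0.012, against 0.0671 without it). EIF4EBP3, which is listed inside the ANKHD1-EIF4EBP3 readthrough gene, stayed at or under 0.136 CPM in all samples. EIF4ENIF1, which carries eIF4E into the nucleus, was called in the combined knockdown only as deposited (-0.50, limma adjusted p = 0.000466), and not after rescaling (-0.16, adjusted p = 0.0655).

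On the log2(CPM + 1) scale, the largest fall of any member in the siMYCN and combined comparisons was that of EIF5A, the hypusinated factor that also helps ribosomes through proline-rich stretches (hg19 chr17:7210318-7215783, plus strand). It measured 321, 309 and 311 CPM in siCtrl, 208, 199 and 193 with siMYCN, 247, 231 and 205 with siHAND2, and 135, 116 and 90.6 in the combined knockdown. The mean went from 314 ± 6.34 CPM to 200.2 ± 7.16, 228 ± 21.1 and 114 ± 22.3 CPM (SD, n = 3), and siCtrl overlapped none of the others. On the log2 scale EIF5A changed by -0.65 ± 0.13 (limma adjusted p = 0.000312), -0.46 ± 0.13 (0.0048) and -1.47 ± 0.13 (1.86e-10), and after rescaling by -0.64, -0.30 and -1.11, all called. The retrogene EIF5AL1 had 3.11, 3.28 and 3.27 CPM in siCtrl, 2.15, 2.18 and 1.49 with siMYCN, 2.55, 2.64 and 1.70 with siHAND2, and 0.956, 1.28 and 0.809 in the combined knockdown. Without the added 1 CPM its means, at 60.3% of siCtrl with siMYCN and 31.5% in the combined knockdown, were lower than the 63.8 and 36.4% of EIF5A, whose reads may have been assigned to it. EIF5AL1 was called in each knockdown (-0.53, -0.37 and -1.07), but the siHAND2 call was lost after rescaling (adjusted p = 0.118) and kept in 11 of 20 other settings. EIF5A2, an inducible copy with 15.7, 13.9 and 13.5 CPM in siCtrl, 12.6, 11.9 and 11.3 with siMYCN, 13.8, 12.3 and 12.3 with siHAND2 and 11.1, 9.95 and 9.02 in the combined knockdown, was called in the combined knockdown as deposited (-0.48, limma adjusted p = 0.000433) and not after rescaling (-0.15). The log2 ratio of EIF5A2 to EIF5A was -4.36 ± 0.09 in siCtrl (SD, n = 3) and higher by 0.40, 0.31 and 0.99 in the 3 knockdowns, without overlap (exact permutation p = 0.1 each). EIF5B, the GTPase of subunit joining, had 66.6, 62.4 and 49.3 CPM in siCtrl, 46.5, 37.8 and 35.8 with siMYCN, 58.7, 49.3 and 47.7 with siHAND2, and 35.2, 30.1 and 24.0 in the combined knockdown. Replicate 1 was the highest of each group. EIF5B fell with siMYCN by 0.56 (limma adjusted p = 0.00331) and in the combined knockdown by 0.98 on the log2 scale (1.07e-06). EIF6, which keeps free large subunits from joining, was called in the combined knockdown (-0.72, limma adjusted p = 1.1e-05), and with siHAND2 only with the replicate block (adjusted p = 0.028, against 0.0564).

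**Figure D5:**
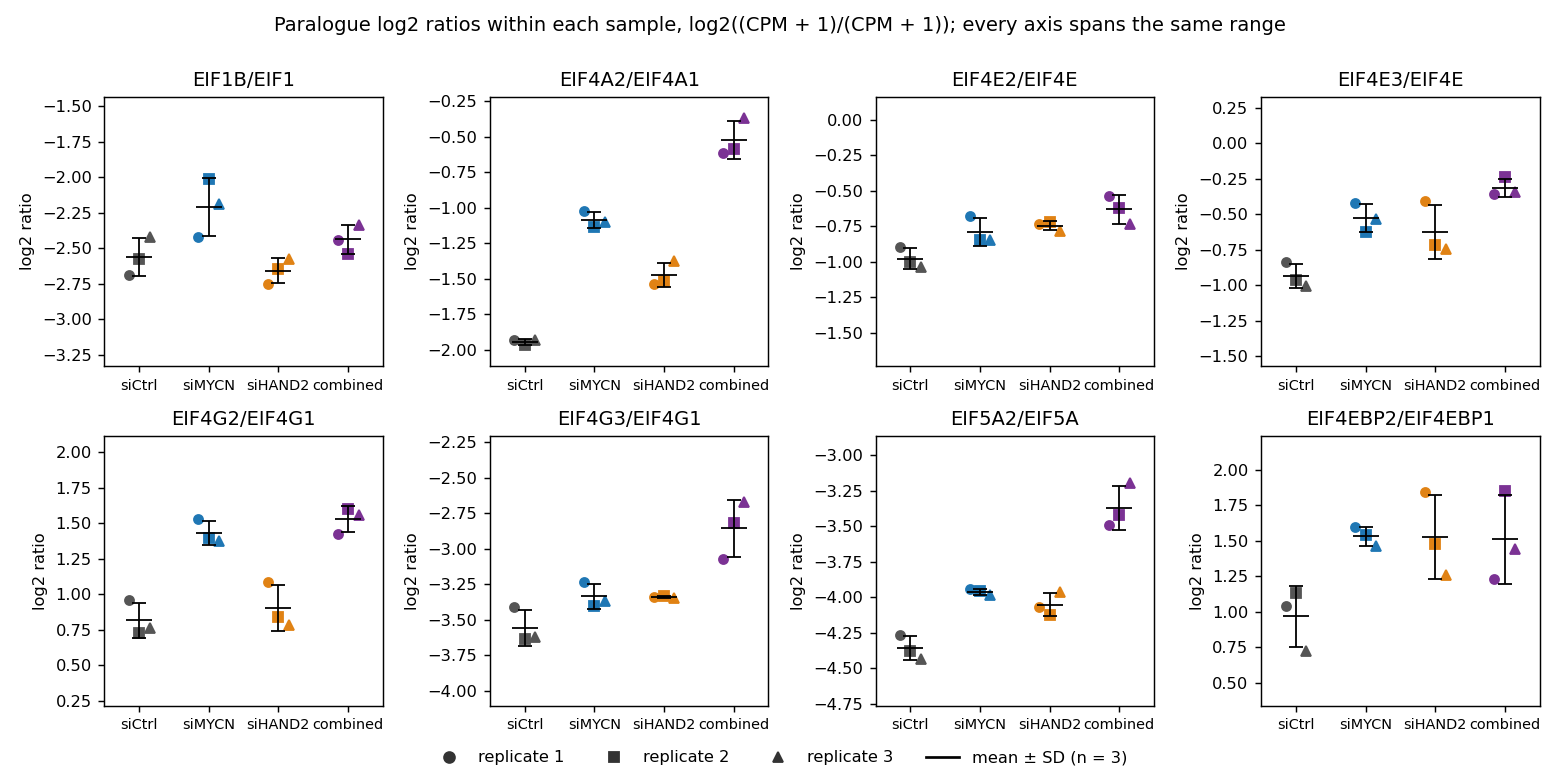
Log2 ratio of CPM + 1 between related genes within each sample (y axes, each spanning the same range) by group (x axes), with 1 marker per replicate and bars for mean ± SD (n = 3). EIF4A2/EIF4A1 separates all 4 groups and runs from a siCtrl mean of -1.94 to -0.52 in the combined knockdown, whereas EIF1B/EIF1 overlaps siCtrl in every knockdown.

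Of the 8 related pairs, 7 had ratios separated from siCtrl with siMYCN, 6 with siHAND2 and 7 in the combined knockdown. In each of these the gene named before the stroke gained on the one after it. EIF1B/EIF1 overlapped siCtrl in all 3, and EIF4EBP2/EIF4EBP1 stood 0.57, 0.56 and 0.54 above siCtrl. No ratio could pass an adjusted p of 0.05, since 3 against 3 samples cannot give an exact permutation p under 0.1. The share of separated ratios among pairs of other genes was not taken. Of single tested genes, 31.4% lay above and 29.6% below all siCtrl samples with siMYCN. These shares were 17.8 and 45.0% with siHAND2 and 16.7 and 48.3% in the combined knockdown. The pairs are not independent, as EIF4E and EIF4G1 each recur among them.

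As deposited, adding the other siRNA lowered most of the genes further, but after rescaling this held only against siHAND2. Against siMYCN alone the combined knockdown had 37 lower and 1 higher of 53 (58.9% of all genes called, 50.0% lower, 8.92% higher). After rescaling the split was 16 lower and 9 higher (56.7% of all genes called, 26.6% lower, 30.0% higher), with a median of -0.07. Of the 38 genes called as deposited, 17 were called again and 5 changed sign. Against siHAND2 alone the combined knockdown had 45 lower and 1 higher (40.3% of all genes called, 31.5% lower, 8.75% higher). After rescaling there were 36 lower and 3 higher (49.7% called, 23.6% lower, 26.1% higher). All 14 eIF3 genes were lower in the combined knockdown than with siHAND2, and 12 after rescaling. EIF4A2 was the 1 gene higher than with siHAND2 (0.33, limma adjusted p = 0.0312).

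Whether the combined change differed from the sum of the single changes was tested by the interaction term. No member passed with limma as deposited, where 4.01% of all genes did, and the smallest adjusted p was 0.091, for EIF3C. At an unadjusted p under 0.05 there were 6 members (11.3%) against 21.4% of all genes. EIF3C and EIF3CL passed after rescaling, where 6.14% of all genes did (-0.33 and -0.31, adjusted p = 0.0159 and 0.0414), and with the replicate number as a block they passed together with EIF4EBP2. Their level was near siCtrl with siHAND2 and below it in the combined knockdown: EIF3C averaged 201 CPM in siCtrl, 174 with siMYCN, 209.8 with siHAND2 and 128 in the combined knockdown. The count of members was 1 without siHAND2 replicate 3 and 24 without combined knockdown replicate 1, the combined library with the largest share of its reads in listed genes. The share of all genes called was not taken in these fits, so the counts cannot be set against a background.

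Neighbouring steps of translation, taken from lists of genes without an EIF symbol, were counted in the same way. Of 13 elongation and termination genes, 7 fell and 1 rose with siMYCN, 4 fell and 2 rose with siHAND2, and 10 fell and 1 rose in the combined knockdown, with medians of -0.34, -0.20 and -0.77. Of all genes 16.3, 30.4 and 50.1% fell and 17.4, 12.3 and 17.4% rose, so that the siHAND2 count is near the background. After rescaling 9 fell and 1 rose with siMYCN, 3 fell and 3 rose with siHAND2, and 9 fell and 2 rose in the combined knockdown. The medians were then -0.33, -0.07 and -0.42. Of all genes 22.5, 24.9 and 33.0% fell and 25.4, 25.9 and 37.7% rose after rescaling. EEF2K, the kinase that inactivates elongation factor 2, had 32.4, 35.4 and 33.3 CPM in siCtrl and 12.3, 11.2 and 8.80 in the combined knockdown (-1.57 on the log2 scale). ABCE1, which recycles ribosomes, had 189, 182 and 189 CPM and 82.6, 67.2 and 62.8 (-1.39). EEF1A2, the neuronal and muscle form of elongation factor 1A, rose in all 3 knockdowns, by 0.86, 0.78 and 0.87, from 35.4 to 38.8 CPM in siCtrl to 49.3 to 92.4 CPM in the combined knockdown.

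Among 31 regulators of initiation, 9 fell and 3 rose with siMYCN, 6 fell and 4 rose with siHAND2, and 19 fell and 3 rose in the combined knockdown. The shares of all genes are those given above as deposited. For siHAND2 the share lower was under that of all genes. After rescaling the combined split was 15 lower and 11 higher (33.0 and 37.7% of all genes). PABPC1, the poly(A)-binding protein that ties to eIF4G, had 563, 537 and 433 CPM in siCtrl and 217, 251 and 168 in the combined knockdown (-1.28), and IMPACT, an inhibitor of GCN2, fell from 28.7, 30.2 and 30.5 CPM to 16.1, 13.9 and 12.4, by 1.03 on the log2 scale. PPP1R15A, the stress-induced subunit (GADD34) of the phosphatase that reverses eIF2 phosphorylation, rose from 7.96, 9.13 and 8.26 CPM to 30.6, 23.7 and 20.0 (1.43), and rose with siMYCN (0.59) and siHAND2 (0.49) as well. TSC1, part of the complex that restrains mTOR, rose from 30.9, 32.2 and 28.7 CPM to 42.6, 41.6 and 36.4 in the combined knockdown (0.38 on the log2 scale). ATF4, the transcription factor translated when eIF2 is phosphorylated, was chosen after its values were seen. It was lower with siMYCN (-0.52) and siHAND2 (-0.51), and in the combined knockdown its -0.46 was called as deposited and not after rescaling (-0.10).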

How the data were processed

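RNA of 12 IMR32 samples (4 groups of 3, grouped and numbered by their titles) was sequenced. The authors deposited one table of CPM per gene and sample, per the file headers, to which a constant of 0.0001 had been added. Alignment with STAR 2.5.1 and use of Partek come from the submitters' processing notes, as does the build, hg19 (GRCh37). The counting tool, its use of strand and the annotation are not given in the sources used here. CPM steps gave whole reads (within 0.05) for 88.5 to 90.1% of values below 20 reads, so no count test was run.

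Values were analysed as log2(CPM + 1), which understates changes of low genes, where the mean CPM reached 1. All 12 samples entered a linear model of the 4 groups in limma 3.58.1 (R 4.3.3, trend on, 8 residual degrees of freedom), two-sided, with Benjamini-Hochberg adjustment over 12680 genes. Genes with an adjusted p under 0.05 are termed called, and fold changes are fitted log2 differences with their standard error. For rescaling, samples were divided by the median, over genes averaging 5 CPM or more, of their ratio to the gene's geometric mean, and refitted. Single values were compared by exact permutation tests. E-boxes were searched in RefSeq promoters by exact letters.

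The members and gene lists were chosen with earlier results of these data known. Any member may be named. Values per sample are given for the 5 largest called rises and falls of each knockdown among members averaging 5 CPM or more, the eIF2 kinases, the 4E-BPs and the related pairs. Of the other lists, the genes named are the 2 largest called changes in either direction in the combined knockdown. EIF3E, EIF5AL1 and any gene so marked were given so after their values were seen. The numbers that open the column headers go up by replicate across all groups, and what they stand for is not given. The same-numbered samples deviated together for siCtrl and siMYCN (r = 0.44, 0.147 and 0.308) and for siMYCN and siHAND2 (0.33, 0.137 and 0.316), but not for every pair of siCtrl and siHAND2 (0.317, -0.0737 and 0.423) or with the combined knockdown, so the fit without a block is the main one and a block on the replicate number is an alternative. Samples with different numbers were not compared in this way. Other alternatives were 2 rescalings, no filter, a minimum mean of 5 CPM, a pseudocount of 0.1, no trend, only the compared groups, an adjusted p under 0.01 and each library left out; canonical transcript lengths and the unadjusted interaction count were added after seeing the data.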

Additional observations from a re-analysis of the deposited data

How the results depend on the processing

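The number of members called with siMYCN, 24, was 40 after rescaling by the median ratio, 41 with that rescaling and the replicate block, 43 with only the compared groups, 11 with no filter, 12 at an adjusted p under 0.01, and 13 to 37 with 1 library left out. For siHAND2, 17 became 29 with only the compared groups, 10 with no filter, 8 at an adjusted p under 0.01 and 11 to 26 with 1 library left out. The 38 of the combined knockdown against siMYCN became 25 after rescaling by the median ratio. The 10 of siMYCN against siHAND2 became 29 (median ratio, with or without the block), 24 (rescaled to the sum over the listed genes), 27 (only the compared groups), 4 (no filter), 2 (adjusted p under 0.01) and 3 to 21 with 1 library left out. The 0 of the interaction became 2 under either rescaling or with the median ratio and the block, 3 with the block alone, 6 at an unadjusted p under 0.05 and 0 to 24 with 1 library left out. Pairing samples by the replicate block gave 26, 21 and 46 calls for siMYCN, siHAND2 and the combined knockdown against siCtrl, with EIF4E and EIF5 gained with siMYCN, EIF2B3, EIF2B5, EIF3B and EIF6 with siHAND2, EIF4EBP2 in the combined knockdown, and none lost. The summed level became 87.7, 103 and 86.3% of siCtrl as a share of the reads in listed genes. In the combined knockdown, EIF3H turned from -0.34 to 0.022, 0.012 and 0.022 under the median ratio, the sum, and the median ratio with the block, EIF4E3 from -0.10 to 0.25, 0.24 and 0.25, and EIF4G2 from -0.16 to 0.20 with the median ratio and the block. The causes of these shifts were not tested, and the share of all genes called was not taken with a library left out. A tally over settings covered single genes against siCtrl and in siMYCN against siHAND2, and the related-pair ratios other than EIF4A2/EIF4A1. In it 4351 values counted as unchanged, 256 became called, 214 lost the call and 7 reversed. The 4351 include 93 that changed sign with neither value called. The combined knockdown against siMYCN was not in this tally. Of its 38 calls, 5 changed sign under the median ratio, with or without the block, and 1 under the sum. The 8 residual degrees of freedom and the drop in reads from listed genes limit how small a change can be told apart from a change of scale.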
